A study of Mus musculus with 4 samples.

Results

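The genes described here build the contacts, the inner scaffold and the apical surface of epithelial cells, measured in Paneth cells, the granule-secreting cells at the base of small intestinal crypts. They were taken by name from the array's annotation: every claudin (symbol Cldn followed by a number) and 30 listed genes of tight, adherens and desmosomal junctions, simple epithelial keratins and the microvillus cytoskeleton. This gave 54 genes with 93 probe sets, of 18193 named genes with 34945 probe sets in all. RNA came from Paneth cells cut from mouse tissue by laser capture, 2 samples of the Atg16-hypomorph genotype and 2 of the wildtype, all of a mixed C57BL/6 and 129ola strain. A hypomorph has a gene of reduced function, and Atg16l1 is needed for autophagy, the delivery of cell contents to the lysosome. The sources used here do not give age, sex, the nature of the allele, the number of cells captured or whether a group's 2 samples came from separate animals. The p-values thus reflect the spread among 4 samples, possibly a technical one, and also borrow from the spread of other probe sets of like brightness. So few arrays limit the precision.

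Tight junctions seal the space between neighbouring epithelial cells near the apex. Claudins form their strands, some closing the seal and others leaving pores for small ions, occludin and its relatives sit in the same strands, and plaque proteins such as those of the Tjp family and cingulin tie them to actin. Adherens junctions, built on cadherins and catenins, join actin belts of adjacent cells, and desmosomes join their keratin filaments, which in gut epithelium are mainly those of keratins 8, 18, 19 and 20. On the apical face, villin, plastin, ezrin and their partners hold up the microvilli, and differentiated enterocytes of the villus carry the densest brush border of the small intestine.

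Values are the intensities deposited by the authors, on a linear scale, and each gene is given by its brightest probe set unless another is named. A difference is the hypomorph mean less the wildtype mean of log2(intensity + 32), a scale that shrinks changes of dim genes, and was tested with limma across 22519 probe sets, two-sided, with calls at a Benjamini-Hochberg adjusted p under 0.05. A probe set was tested only if its mean log2 value reached the median of all probe sets. Levels of different probe sets cannot be set against each other. Because bulk RNA was measured, fewer cells of a type and less RNA per cell cannot be told apart.

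On the series as a whole, Atg16l1 read 966 and 995 in hypomorph and 1335 and 1183 in wildtype (log2 difference -0.35, SE 0.10; limma adjusted p = 0.102), so the targeted gene was lower on both hypomorph arrays without passing the test. Rank correlations across probe sets were 0.968 within hypomorph, 0.972 within wildtype and 0.956 to 0.969 between groups. The genes that define Paneth cells were bright on every array. Lyz1, the Paneth cell lysozyme, read 14561 and 15097 in hypomorph and 15481 and 16021 in wildtype, and the protease gene Mmp7, which activates defensins, 8463 and 9486 against 9063 and 9314. Summed over the 10 of 16 listed Paneth markers found on the array, hypomorph arrays reached 64945 and 68776 and wildtype arrays 65911 and 66526. The sum hides differences among them. In limma 2 of the 10 were called higher and 0 lower, where 4.23% of all genes tested were called. These were Mptx1 (0.83, limma adjusted p = 0.00151) and Reg3g (0.26, limma adjusted p = 0.0453). Of the 10 markers 7 had a negative difference, as did 6390 of all 11577 genes tested. An unadjusted p under 0.05 was found for 5 of the markers, against 21.7% of all genes. Xist, expressed from the inactive X chromosome in females, read 4414 and 4510 in hypomorph and 18.0 and 25.6 in wildtype, so sex and genotype cannot be told apart here.

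Most junction and keratin genes differed little between genotypes, and 5 passed the test. Krt20, the keratin of differentiated villus cells, Eps8, which caps and bundles actin in microvilli, and Cgn, which encodes cingulin, were higher in hypomorph. Cldn8, a sealing claudin best known from the distal colon and the kidney collecting duct, and Epcam, an adhesion protein of epithelial membranes, were lower. Of the 54 genes 40 were bright enough to test and 14, all claudins, were not. The 5 calls are 12.5% of the 40, where 4.23% of all 11577 genes tested were called, 2.53% higher and 1.70% lower. By probe set, 5 of 62 tested (8.06%) were called, 3 higher and 2 lower, against 3.71% of all probe sets, 2.04% higher and 1.67% lower. The median difference of the 40 was 0.04, and that of all genes tested -0.02. Of the 5, Cldn8 was the one called in every alternative analysis in which it was bright enough to be tested.

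For the 35 genes without a call, the 95% intervals hold only under the model used. They rest on few arrays with a spread that may be technical, so they do not bound a genotype effect. With the spread borrowed regardless of brightness, the SE of Cdh17 was 0.106, against 0.057, and that of Ctnna1 0.106, against 0.054. The SE of the dimmer Pkp3 then went the other way, 0.132 against 0.174, but was 0.262 with 1 added to the intensities. In the main model the 95% interval of the difference stayed within 0.5 of 0 for 26 of the 35 genes and within 1 for all 35. The largest uncalled difference measured 0.40 in size. Intervals of dimmer probe sets of the same genes could reach further. A dimmer probe set of Dsg2 gave -0.66 to 0.001, and a dimmer probe set of Pkp2 gave -0.67 to 0.17. Groups did not overlap for 23 of the 40 genes (57.5%), close to the 53.4% of all genes tested. Both hypomorph arrays were above both wildtype arrays for 12 genes and below them for 11, where 23.4% and 30.0% of all genes were. An unadjusted p under 0.05 was found for 9 genes (22.5%), against 21.7% of all genes. The 2 arrays of a group lay a median of 0.11 log2 units apart in hypomorph and 0.09 in wildtype over these genes.

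**Figure D1:**
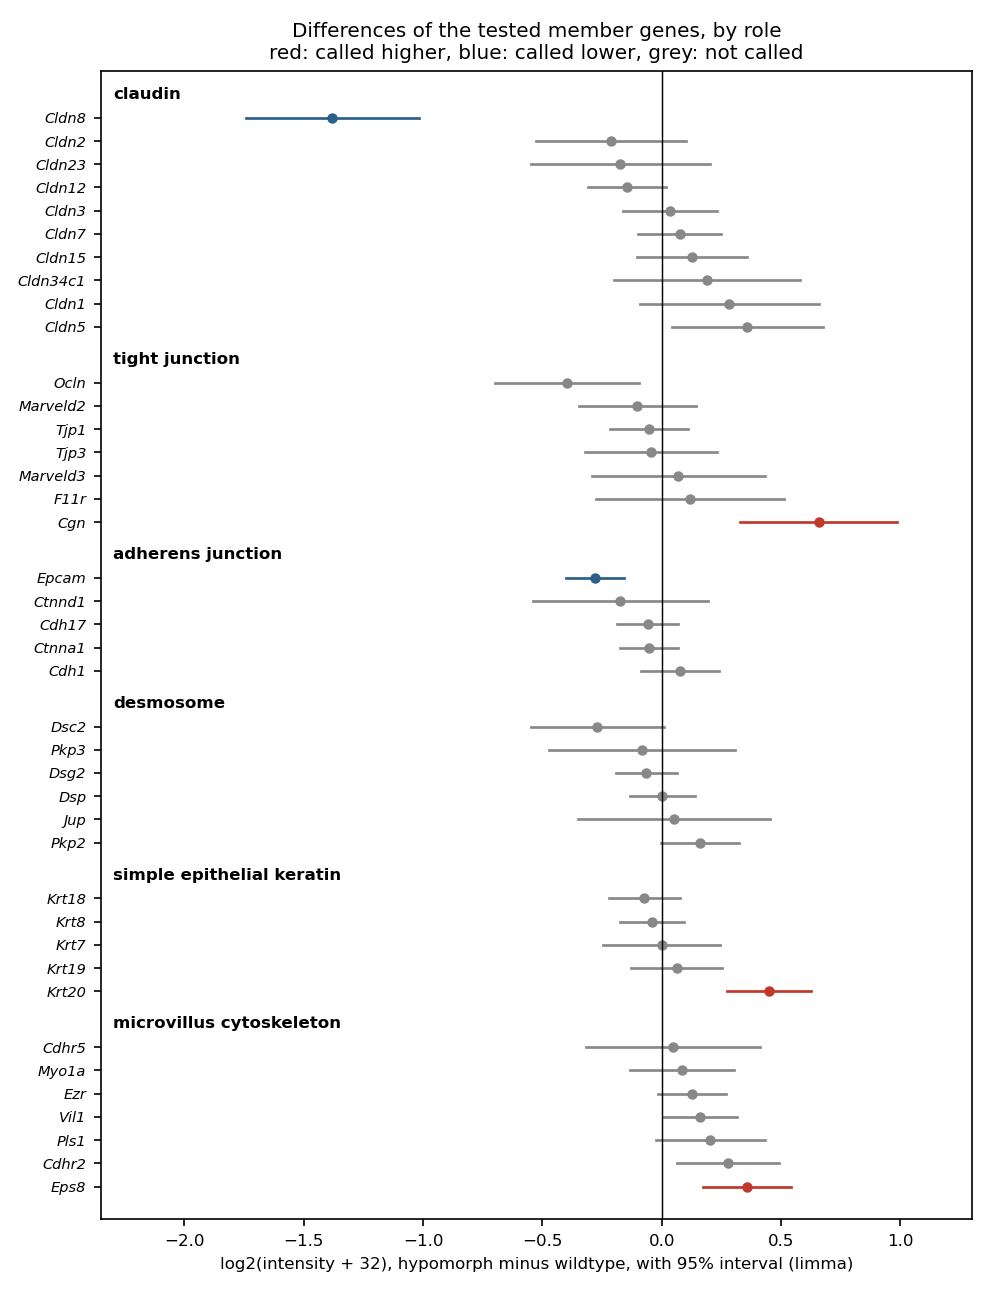
Log2 difference of each tested gene (hypomorph minus wildtype, log2(intensity + 32)), as a point with its 95% interval from limma, grouped by role. Red genes were called higher, blue genes lower and grey genes not called; Cldn8 lies farthest from 0 at -1.38 and Cgn farthest on the higher side at 0.66.

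The sequence just before the annotated transcription start is shown for the called genes that have a RefSeq promoter window. The arrays do not show which start was used. Windows of 250 bases before the start were found for 3 of the 5 called genes and for 39 of the 54 members, in build GRCm38.p6, and were matched by symbol. Capitals mark the letters TATAAA, the core of a TATA box, and CACCTG, an E-box of the kind that binds Snail and Zeb repressors of epithelial genes, each searched on both strands.
Krt20 (chr11:99438154-99438403, reverse strand): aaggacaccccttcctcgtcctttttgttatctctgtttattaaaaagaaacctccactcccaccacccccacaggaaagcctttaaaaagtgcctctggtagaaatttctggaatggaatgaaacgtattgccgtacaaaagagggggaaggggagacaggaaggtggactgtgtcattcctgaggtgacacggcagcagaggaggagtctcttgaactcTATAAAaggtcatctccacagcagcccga
Cgn (chr3:94786483-94786732, reverse strand): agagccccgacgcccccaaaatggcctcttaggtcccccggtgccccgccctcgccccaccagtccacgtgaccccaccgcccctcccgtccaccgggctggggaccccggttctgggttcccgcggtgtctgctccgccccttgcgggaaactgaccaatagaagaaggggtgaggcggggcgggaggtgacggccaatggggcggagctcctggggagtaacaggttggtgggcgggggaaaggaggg
Epcam (chr17:87635729-87635978, forward strand): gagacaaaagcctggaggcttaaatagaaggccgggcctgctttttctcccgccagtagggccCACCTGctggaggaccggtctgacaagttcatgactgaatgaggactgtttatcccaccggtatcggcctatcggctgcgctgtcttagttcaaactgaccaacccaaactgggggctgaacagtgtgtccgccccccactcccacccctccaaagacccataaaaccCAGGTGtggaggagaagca
TATAAA was found in 12.4% of all 32851 windows and in 11.8% of the 51 member windows, and CACCTG in 17.2% and 27.5%. Neither motif overlaps the other in the sequences printed. The Krt20 window held TATAAA on the gene's own strand, its first base 29 bases before the start, and no CACCTG. The Epcam window held CACCTG on the gene's strand, starting 187 bases before the start, and as CAGGTG, its reverse complement, from 19 bases before the start. The Cgn window held neither and was rich in G and C (70.4%, against 56.4% for Epcam and 48.0% for Krt20). A match of letters is a description and does not show that a factor binds there.

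Claudins had the largest single difference. Cldn8 (probe set 1449091_at, chromosome 16) read 68.4 and 60.0 in hypomorph and 229 and 208 in wildtype. Both hypomorph values lay far below both wildtype values, with means of 64.2 ± 5.94 and 219 ± 14.7 (SD, n = 2 per group). Cldn8 fell by 1.38 on the log2 scale (SE 0.16, 95% interval -1.74 to -1.02; limma adjusted p = 0.00132), 2.60-fold with the added 32 and 3.4-fold by the ratio of mean intensities. The size therefore depends on the added constant: the difference was -1.75 with 1 added and -0.85 with 4 times 32 added, which moves it by over 1.5 times, and both were called. Cldn8 was represented by this probe set alone.

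The claudins known to be abundant in small intestine did not pass the test. Cldn7, a claudin of the lateral membrane, read 3797 and 4016 in hypomorph and 3488 and 3933 in wildtype, with overlapping groups. Cldn3, a sealing claudin, read 1847 and 1718 against 1705 and 1769, and its 3 tested probe sets gave differences between -0.03 and 0.04. Cldn15, which forms sodium pores and is needed for sodium recycling into the gut lumen, read 1604 and 1920 against 1600 and 1610. The intervals of these differences were -0.10 to 0.25 for Cldn7, -0.16 to 0.23 for Cldn3 and -0.10 to 0.36 for Cldn15, so a change as large as that of Cldn8 lay outside each of them. Cldn12 read 4692 and 5327 in hypomorph and 5380 and 5687 in wildtype, both hypomorph values below both wildtype values (-0.15, limma adjusted p = 0.300). Cldn2, the cation pore claudin of crypts, was at 300 and 347 against 376 and 383 (-0.21, limma adjusted p = 0.424). Its second probe set, too dim to test, lay the other way at 16.8 and 20.5 against 10.4 and 15.6, and the mean over both gave -0.02 (limma adjusted p = 0.938). Cldn1 was at 111 and 92.2 against 81.1 and 74.5 (0.28, limma adjusted p = 0.376). Cldn23 and Cldn34c1, the remaining tested claudins, differed by -0.17 and 0.19 and were not called.

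Cldn5, the claudin of blood vessel walls that epithelia also express, was higher on both hypomorph arrays, at 361 and 366 against 258 and 296, but missed the threshold (0.36, SE 0.14; limma adjusted p = 0.192). Beside it, the summed level of 10 endothelial markers was 2930 and 3049 in hypomorph and 2607 and 2415 in wildtype, 0 of the 7 tested were called by limma (3 had an unadjusted p under 0.05), and their median difference was 0.22. The difference was positive for 6 of the 7, against 44.8% of all genes tested. Of all genes, 4.23% were called and 21.7% had an unadjusted p under 0.05. The endothelial markers with an unadjusted p under 0.05 were Kdr, Eng and Ramp2, at 0.44, 0.38 and 0.34, none of which passed after adjustment. Cdh5 read 55.1 and 64.9 against 73.7 and 63.8, and Tie1 was below 10 on every array. The part of vessel RNA in the value of Cldn5 was not tested.

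The 14 claudins that were too dim to test were Cldn4, Cldn6, Cldn9, Cldn10, Cldn11, Cldn13, Cldn14, Cldn16, Cldn18, Cldn19, Cldn22, Cldn34b2, Cldn34c4 and Cldn34d. Their intensities ran from 1.0 to 39.7 over the 4 arrays, and 3 of them stayed below 10 on every array. Several are known from other organs, such as Cldn16 and Cldn19 of the kidney, Cldn18 of stomach and lung, Cldn14 of the inner ear and Cldn11 of myelin and testis. Cldn4, a claudin of many glands and of the colon, read 35.7 and 23.1 in hypomorph and 22.4 and 16.9 in wildtype. The files carry no detection calls, so these values do not show whether a transcript was present.

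**Figure D2:**
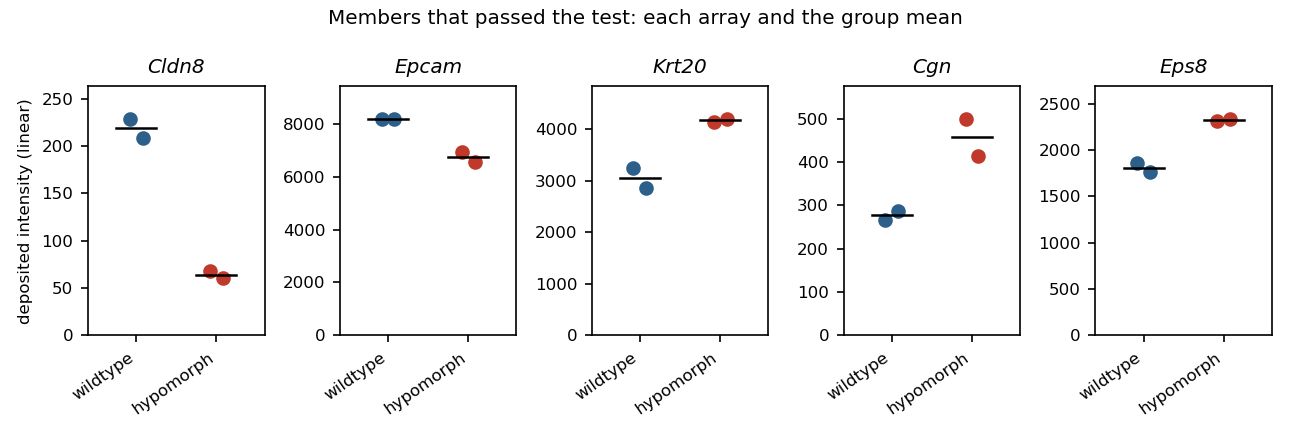
Deposited intensity (linear axis from 0) of the 5 genes that passed the test, one panel per gene with its own scale. Points are single arrays (blue wildtype, red hypomorph) and bars group means; the hypomorph points of Cldn8 and Epcam lie below both wildtype points and those of Krt20, Cgn and Eps8 above both.

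Among the other tight junction genes, cingulin changed and the membrane and scaffold proteins were not called. Cgn (probe set 1435155_at, chromosome 3) read 501 and 415 in hypomorph and 267 and 288 in wildtype, means of 458 ± 60.7 and 278 ± 15 (SD, n = 2 per group). The hypomorph arrays were both above the wildtype arrays but also far apart from each other. Cgn rose by 0.66 (SE 0.15, 95% interval 0.33 to 0.98; limma adjusted p = 0.0404). A second, dimmer probe set of Cgn gave 0.01 (SE 0.20), with values of 80.2 ± 26.5 and 78.2 ± 12.6, and the mean over both gave 0.33 (limma adjusted p = 0.224). The call was lost without hypomorph replicate 1 (limma adjusted p = 0.154) and without either wildtype replicate (0.156 and 0.0833).

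Ocln, which encodes occludin, read 618 and 785 in hypomorph and 979 and 878 in wildtype. Its 2 groups did not overlap, yet the difference missed the threshold (-0.40, SE 0.13; limma adjusted p = 0.139). A second Ocln probe set gave -0.19. The difference turned on single arrays. Without hypomorph replicate 2 it was -0.56 and passed (limma adjusted p = 0.0371), and without hypomorph replicate 1 it was -0.23 (limma adjusted p = 0.453). Marveld2, the tricellulin gene of corners where 3 cells meet, read 731 and 718 against 765 and 796 (-0.10, limma adjusted p = 0.639). Its relative Marveld3 read 315 and 423 against 330 and 364, and 2 tested probe sets differed in sign, at 0.07 and -0.20. Of the scaffold genes, Tjp1 was at 2869 and 3081 against 3086 and 3085 and Tjp3 at 601 and 562 against 568 and 636, with differences of -0.05 and -0.05. F11r, a junctional adhesion molecule, read 109 and 144 against 120 and 106 (0.12, limma adjusted p = 0.753).

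The genes listed under adherens junctions showed small differences, with 1 fall. The fall was in Epcam, placed here as an adhesion protein, and the cadherin and catenin genes were not called. Epcam (probe set 1416579_a_at, chromosome 17), whose protein is known to bind and stabilise claudins, read 6944 and 6574 in hypomorph and 8213 and 8181 in wildtype, means of 6759 ± 261 and 8197 ± 22.8 (SD, n = 2 per group). It fell by 0.28 (SE 0.06, 95% interval -0.40 to -0.16; limma adjusted p = 0.0235), or 1.21-fold. A dimmer Epcam probe set read 806 ± 134 and 809 ± 68.4, a difference of -0.01 (SE 0.14), and the mean of both missed the threshold (-0.15, limma adjusted p = 0.382). The call was also lost without either wildtype replicate (limma adjusted p = 0.150 and 0.140). Cdh1, the gene of E-cadherin, read 3651 and 3362 in hypomorph and 3306 and 3334 in wildtype (0.08, 95% interval -0.09 to 0.24). Cdh17, the intestinal cadherin, read 6733 and 7227 against 7228 and 7309 (-0.06, 95% interval -0.19 to 0.07). The catenin genes Ctnna1, at 8600 and 9108 against 8947 and 9406, and Ctnnd1, at 236 and 319 against 314 and 314, were not called (limma adjusted p = 0.633 and 0.595). Of the 5 genes of this role, Ctnna1 and Ctnnd1 overlapped between groups.

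None of the 6 desmosomal genes was called by limma, and 0 had an unadjusted p under 0.05. Dsp, the plaque protein desmoplakin, gave one of the smallest differences: 6082 and 5730 in hypomorph and 6047 and 5741 in wildtype (0.003, 95% interval -0.13 to 0.14). Dsg2, the main desmoglein of simple epithelia, read 6028 and 5937 against 6392 and 6124, lower on both hypomorph arrays, and its 4 tested probe sets gave -0.06 to -0.33, all below 0. Its partner cadherin Dsc2 read 526 and 551 against 613 and 702 (-0.27, limma adjusted p = 0.257), while a second probe set gave 0.02. The plakophilin Pkp2 was at 3188 and 3248 against 2968 and 2794 (0.16, limma adjusted p = 0.256), with other probe sets at 0.25 and -0.25. The dimmest genes of this role, Jup (plakoglobin) at 73.9 and 104 against 82.0 and 86.1 and Pkp3 at 50.2 and 66.4 against 59.3 and 67.4, overlapped between groups.

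Of the 5 keratins only Krt20 passed the test. Krt20 (probe set 1426284_at, chromosome 11) read 4139 and 4209 in hypomorph and 3253 and 2855 in wildtype, means of 4174 ± 49.8 and 3054 ± 281 (SD, n = 2 per group). The lower hypomorph array stood well above the higher wildtype array. Krt20 rose by 0.45 (SE 0.08, 95% interval 0.27 to 0.63; limma adjusted p = 0.0137), or 1.37-fold. The call was lost without wildtype replicate 2 (0.36, limma adjusted p = 0.0912) and kept without each of the other arrays. The keratin pairs of all simple epithelia stayed close: Krt8 read 11396 and 12739 in hypomorph and 11984 and 12798 in wildtype, and Krt18, its filament partner, 4045 and 4097 against 4421 and 4152. The 3 Krt8 probe sets gave -0.03 to -0.06, but probe sets this bright can be compressed. Krt19 was at 6188 and 6797 against 5674 and 6792 (0.06, 95% interval -0.13 to 0.25). Krt7, a keratin of ducts, was at 1220 and 1400 against 1228 and 1391 (0.00, 95% interval -0.24 to 0.24). For Krt7, Krt8 and Krt19 replicates of a group lay farther apart than the group means, and so did the wildtype replicates of Krt18.

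The 7 listed microvillus genes leaned one way, with 1 call, in a list chosen with earlier results of these data known. All 7 had a positive difference, where 44.8% of all genes tested did, and in 5 of the 7 both hypomorph arrays lay above both wildtype arrays, against 23.4% of all genes. Their median difference was 0.16. The wider list of other microvillus and terminal web genes did not share the lean. There the median was -0.02, and 13 of the 24 tested had a negative difference. Eps8 (probe set 1422824_s_at, chromosome 6) read 2312 and 2339 in hypomorph and 1857 and 1760 in wildtype, means of 2326 ± 18.7 and 1808 ± 68.8 (SD, n = 2 per group). It rose by 0.36 (SE 0.08, 95% interval 0.17 to 0.54; limma adjusted p = 0.0442), or 1.28-fold. Its other probe sets disagreed, with 1641 and 1967 against 1662 and 1635 for one (0.12) and 223 and 188 against 278 and 260 for the other (-0.34, both hypomorph arrays lower). The mean over the 3 probe sets was 0.05 (limma adjusted p = 0.801), and the call was lost without each array in turn (limma adjusted p = 0.0587 to 0.234). Eps8 was the only member whose probe sets opposed each other by more than 0.5.

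The other 6 microvillus genes did not pass the test. Cdhr2, a protocadherin that links the tips of neighbouring microvilli, read 2256 and 2655 in hypomorph and 1956 and 2068 in wildtype (0.28, SE 0.10; limma adjusted p = 0.142). The difference was 0.16 without hypomorph replicate 2 and 0.40 without hypomorph replicate 1, and passed in neither case. Its partner Cdhr5 read 116 and 135 against 124 and 117, with overlapping groups (0.05). The actin bundlers villin and plastin, Vil1 and Pls1, read 3914 and 3956 against 3391 and 3646 (0.16, limma adjusted p = 0.228) and 1469 and 1539 against 1400 and 1211 (0.20, limma adjusted p = 0.298). Groups did not overlap for either gene, but the difference of Pls1 was 0.10 without wildtype replicate 2. Ezr, which ties the membrane to actin, read 5308 and 5618 against 4869 and 5131, and its 2 probe sets gave 0.13 and 0.15. The brush border motor Myo1a read 2542 and 2985 against 2446 and 2758, with overlapping groups (0.08).

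**Figure D3:**
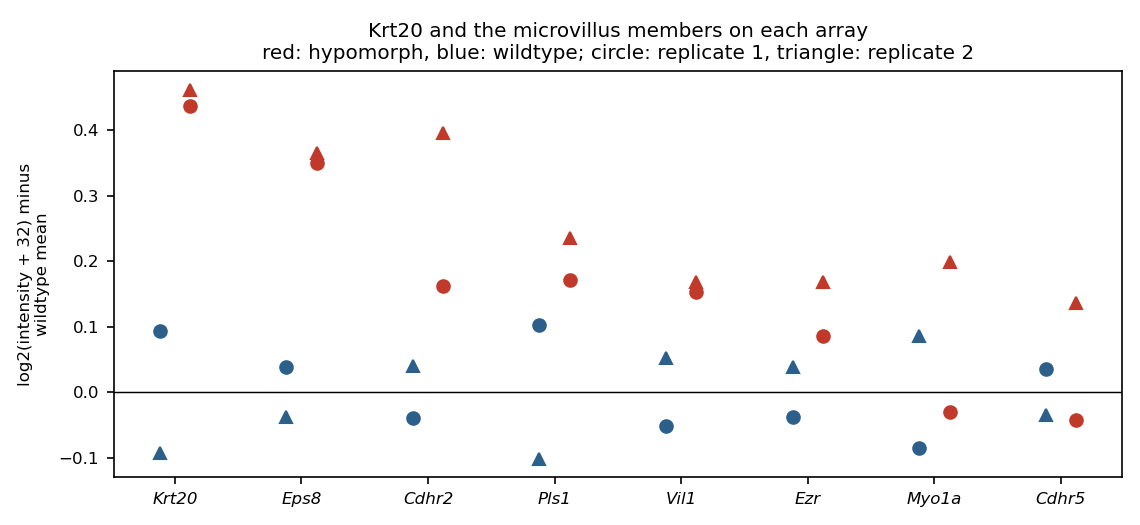
Log2(intensity + 32) of Krt20 and the 7 microvillus genes on each array, less the wildtype mean of the same gene (red hypomorph, blue wildtype; circles replicate 1, triangles replicate 2). For Krt20, Eps8, Cdhr2, Pls1, Vil1 and Ezr both red points lie above both blue points, and for Myo1a and Cdhr5 the groups overlap; Krt20 was placed beside them after its values were seen.

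Other genes of the same structures were read from a list of 79 names, of which 70 were found on the array and 58 were bright enough to test. Of these 2 rose and 0 fell in limma, where 4.23% of all 11577 tested genes were called in either direction. An unadjusted p under 0.05 was found for 10 of the 58 and for 21.7% of all genes tested. Both that rose encode scaffolds with PDZ domains that anchor transporters under the apical membrane. Slc9a3r1, whose protein binds ezrin, read 2994 and 3633 in hypomorph and 2083 and 2249 in wildtype (0.60, SE 0.10; limma adjusted p = 0.0103), and all 3 of its probe sets were called, at 0.60 to 0.73. Pdzk1 read 1039 and 845 against 353 and 401 (1.25, SE 0.14; limma adjusted p = 0.000912). The other 22 tested microvillus and terminal web genes were not called, and the list's median was -0.02. Among 30 other junction genes 0 were called by limma, with 4 at an unadjusted p under 0.05 and a median of 0.03. Of the other keratins and plakins 4 were bright enough to test and 0 were called (1 had an unadjusted p under 0.05), and the list's highest difference was that of Krt4, an oesophageal keratin, at 334 and 298 against 210 and 202 (0.54, limma adjusted p = 0.0743). Krt5, Krt14 and Krt17, keratins of stratified epithelia, stayed between 13.8 and 36.2 on all arrays and were not tested.

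Markers of other cells moved beside these genes. Of 19 tested enterocyte markers, none of them a member here, 11 rose and 0 fell in limma, where 4.23% of all genes tested were called. An unadjusted p under 0.05 was found for 16 of these markers, against 21.7% of all genes. The median difference of the markers was 0.49. Their summed level over 22 genes was 46883 and 48576 in hypomorph and 34660 and 35696 in wildtype. The brush border phosphatase gene Alpi, for instance, read 1680 and 1511 against 685 and 592, while Rbp2 was below 10 on every array. The difference was positive for 18 of the 19, against 44.8% of all genes. Mgam went the other way, at 4095 and 3678 against 4277 and 4535 (-0.18, limma adjusted p = 0.209). Krt20, Slc9a3r1 and Pdzk1 also rose. Eps8 was called higher on its brightest probe set alone, and the mean over its probe sets was 0.05 (limma adjusted p = 0.801). In the wider microvillus and terminal web list, 13 of the 24 tested genes had a negative difference. Fat cell markers, whose sum was 33168 and 32998 against 10214 and 10371, rose in 9 of 10 tested cases, against 2.53% of all genes. For the genes that were lower, the summed level of 10 crypt stem cell markers was 15792 and 15864 in hypomorph and 17928 and 17698 in wildtype. Of the 10 tested, 2 fell in limma (Msi1 and Cd44) and 9 had a negative difference. Of all 11577 genes tested, 1.70% fell and 6390 had a negative difference. The stem cell markers Lgr5 and Olfm4 were not called (-0.11 and -0.05). The summed level of 11 enteroendocrine markers was 10415 and 10800 against 14122 and 13114. Of the 10 tested, 4 fell in limma and 8 had a negative difference, beside the same shares of all genes. Scg2 lay the other way (0.61, limma adjusted p = 0.0776). The part of these cells in the junction, keratin and microvillus values was not tested. Mesothelial cells also carry keratins 8, 18 and 19. The summed level of 6 of their markers was 447 and 477 against 232 and 183, of which only Upk1b was bright enough to test and rose (1.16), and Wt1 was below 10 on every array.

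**Figure D4:**
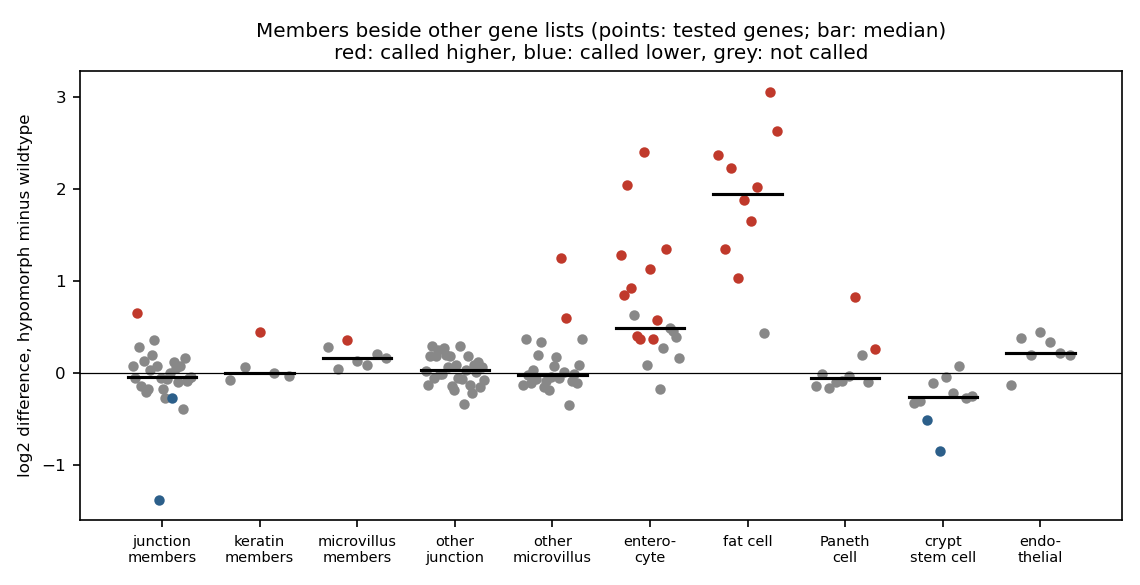
Log2 difference (hypomorph minus wildtype) of each tested gene in the described roles, in the other junction and microvillus lists and in 5 marker lists; points are genes (red called higher, blue called lower, grey not called) and black bars medians. Junction and keratin genes centre near 0, the microvillus genes at 0.16, enterocyte markers at 0.49 and fat cell markers at 1.95.

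Probe sets of the same gene gave a further check on each value. Of the 15 genes with 2 or more tested probe sets, 6 had differences of both signs, and the median gap between the highest and the lowest was 0.22. The gap was under 0.2 for 6 genes, namely Krt8, Ezr, Ctnna1, Cldn3, Cldn12 and Dsp. The largest gaps were those of Eps8 (0.70) and Cgn (0.65), both of which were called on the brightest probe set alone. Cldn8 and Krt20 each had 1 probe set, so their values could not be compared in this way. Probe sets whose identifiers carry an x or s mark can match more than one transcript, which applies to the brightest ones of Eps8, Ezr, Cldn3, Ctnna1, Dsg2, Pkp2 and Jup.

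**Figure D5:**
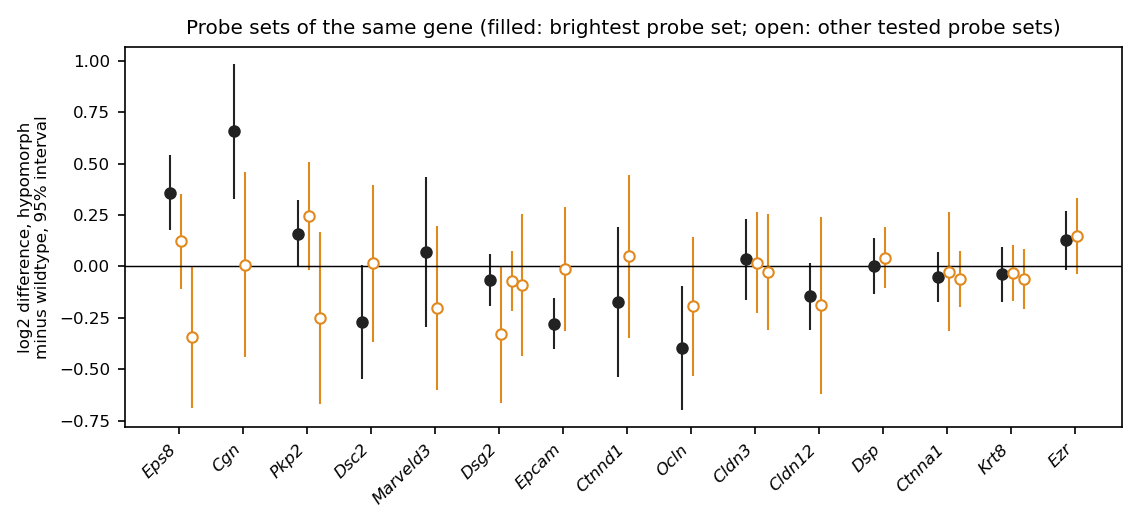
Log2 difference (hypomorph minus wildtype) with its 95% interval for every tested probe set of the 15 genes that have 2 or more, ordered by the gap between them; filled points are the brightest probe set and open points the others. Eps8 and Cgn have the widest gaps, at 0.70 and 0.65, and Ezr and Krt8 among the narrowest.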

How the data were processed

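RNA from laser-captured Paneth cells was extracted with PicoPure, amplified and labelled with biotin using RiboAmp Plus, per the labels' protocols, and hybridised to 4 arrays, 2 per group. The authors deposited 1 linear intensity per probe set. The sources used here do not give the summarising method, the background correction, the scaling or any detection calls. Array means, after trimming 2% from both ends, lay within 1.02-fold of each other, so the values were not scaled again.

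Of 45101 probe sets, 64 controls were left out. Of the rest 34945 carried 1 gene symbol in the platform annotation, 932 several and 9160 none, and only the first were named. No symbol changed through the RefSeq table. The test used log2(intensity + 32). Probe sets at or above the median mean log2 value (6.32) entered a model with only a group term, in limma 3.58.1 under R 4.3.3 (eBayes with an intensity trend, 2 residual and 7.81 prior degrees of freedom). Adjusted p-values run over all 22519 tested probe sets. The procedure was also run on simulated arrays with independent errors, drawn from the variance model that limma assumes. That run cannot check whether the model holds for these arrays. Promoter sequences came from RefSeq (GRCm38.p6).

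Members and lists were chosen with earlier results of these data known. Values per array are given for called members, for genes whose probe sets oppose each other by over 0.5, for up to 4 other members per role with the smallest p, and for further members for context. Alternatives covered the normalisation, pseudocount, filter, variance model, replicate block, mean over probe sets and leaving out each array. In the last, the remaining array of the shortened group borrows the spread of the other group.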

Additional observations from a re-analysis of the deposited data

How the results depend on the processing

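Quantile normalisation, pseudocounts of 1 and of 4 times 32 and a robust prior kept all 5 member calls, and no called difference changed sign in any alternative. Median centring lost Cgn (adjusted p = 0.0515 in limma). Without the brightness filter, and likewise without the intensity trend, 0 member genes were higher and 1 lower (the same numbers for probe sets), Cldn8 alone being kept, and 1 gene of the other junction, keratin and microvillus list was higher. Calls over all probe sets and all genes were then 303 and 177 without the filter and 323 and 173 without the trend. A filter keeping probe sets above the 0.75 quantile of brightness gave 556 calls over probe sets, and 1 member gene and 1 member probe set lower, since Cldn8 was too dim to be tested there. The mean over probe sets left 1 member gene higher (Krt20) and 1 lower (Cldn8). The other causes were not tested. Leaving out each array in turn gave 500 to 1648 calls over probe sets and 289 to 857 over genes, the highest without hypomorph replicate 2. Member genes, and likewise member probe sets, numbered 0 to 2 higher and 1 to 3 lower, and other listed genes 2 to 3 higher and 0 to 1 lower. Replicate numbers are shared by the groups, and the deviations of same-numbered arrays correlated across probe sets (0.264), but with 2 pairs the numbers cannot be shown to pair the samples. With the replicate number as a block there were 3206 calls over probe sets and 1737 over genes, 5 other listed genes were higher, all 5 member calls were kept, and Cdhr2 (0.28, adjusted p = 0.0184) and Ocln (-0.40, adjusted p = 0.0127) were added. Of the 5 calls, Cldn8 was kept in 13 of 13 alternatives, Krt20 in 11 of 14, Epcam in 9 of 14, and Cgn and Eps8 in 7 of 14 each.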
